A study of Homo sapiens with 4 samples.

Results

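Long noncoding RNAs that host small nucleolar RNAs (snoRNAs) were followed in a human liver cancer cell line and in cells of that line resistant to the platinum drug oxaliplatin, which forms adducts on DNA. Members were all transcripts whose GENCODE release 29 gene name is SNHG with a number, other than SNHG14, or is GAS5, ZFAS1, DANCR, EPB41L4A-AS1, NOP14-AS1, LRRC75A-AS1, C6orf48, CWF19L1-AS1 or PRR34-AS1. No measured value entered this rule. It found 31 genes with 278 transcripts, out of 29585 named genes and 106179 transcripts in the deposited table. CWF19L1-AS1 was not found by name in release 29 and is not analysed here. SNHG28 carries 2 gene identifiers, of which only ENSG00000256029 had counts.

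A snoRNA of this kind is cut out of an intron of its host after splicing. Box C/D snoRNAs guide methylation of the ribose in ribosomal RNA, box H/ACA snoRNAs guide the conversion of uridine to pseudouridine, and the related scaRNAs do the same on spliceosomal RNA in Cajal bodies. The spliced exons that remain are the host lncRNA. Many hosts begin with a terminal oligopyrimidine (TOP) tract, as ribosomal protein genes do, and several spliced host RNAs are known to be removed by nonsense-mediated decay.

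The 4 libraries were made from total RNA of HepG2 cells, an established line of hepatocellular carcinoma according to the labels. The labels name 2 libraries wild type and 2 oxaliplatin resistant. They give no drug dose, length of exposure or way of deriving the resistant cells, and list no treatment for the cells sequenced. Separate cultures behind the libraries of a group are not stated, nor whether the resistant cells are 1 clone, and the p-values therefore rest on a library-to-library spread that may be only technical. Library totals were 38113398 and 34898860 counts for wild type and 43473826 and 44063444 for resistant cells, of which transcripts with a release 29 gene held 79.4% to 83.3%. The table holds noncoding transcripts and almost no mRNAs, so the cell label could be checked only in part. The hepatocyte marker genes AFP, AHSG, AMBP, FGB, SERPINA1, TF and TTR were at 0 in every library. H19, a lncRNA of fetal liver and of HepG2 cells, had 6486 and 8186 counts in wild-type cells against 5958 and 5116 in resistant cells.

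The name of the group was checked against the annotation. A snoRNA or scaRNA lay inside 27 of the 31 members, 63 in all: 37 of box C/D (SNORD), 22 of box H/ACA (SNORA) and 4 SCARNA. GAS5 held 11, SNHG1 held 8, and SNHG12 and SNHG17 held 4 each. NOP14-AS1, PRR34-AS1, SNHG27 and SNHG28 held none in the annotation used, and for them the name host rests on the rule alone. The gene C6orf48 and the SNHG28 gene that had counts are classed as protein coding in the annotation. For these genes the name lncRNA was therefore not borne out by the gene class. Positions of 59 of the 63 came from a RefSeq table that gives no strand.

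Start sites are shown first, because a TOP tract is a sequence feature that many hosts have and the rule did not use. Each line holds 20 bases before and 30 bases after the RefSeq start on build GRCh38.p14, 5′ to 3′ on the transcribed strand: ZFAS1 at chr20:49278622-49278671 (plus strand), C6orf48 at chr6:31834896-31834945 (plus), SNHG4 at chr5:139274081-139274130 (plus), SNHG7 at chr9:136728155-136728204 (minus) and LRRC75A-AS1 at chr17:16438967-16439016 (plus). Capitals mark a C followed by at least 4 bases that are C or T, with that C within 5 bases of the start.
ZFAS1: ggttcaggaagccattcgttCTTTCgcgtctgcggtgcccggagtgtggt
C6orf48: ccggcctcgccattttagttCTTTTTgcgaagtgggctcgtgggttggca
SNHG4: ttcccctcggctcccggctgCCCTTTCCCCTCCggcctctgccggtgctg
SNHG7: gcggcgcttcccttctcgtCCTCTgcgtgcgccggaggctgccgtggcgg
LRRC75A-AS1: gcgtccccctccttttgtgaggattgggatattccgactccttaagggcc
The pyrimidine tract was found at 11 of the 27 members with an entry, 40.7%, and at 19.7% of all 35116 RefSeq promoters in the same window, searched on the transcribed strand only. The run shown for SNHG4 was 13 bases long, and those of ZFAS1 and SNHG7 were 5 bases. LRRC75A-AS1 (RefSeq name SNHG29) had none at this start, and neither did GAS5, whose RefSeq start lies outside its release 29 gene. A match is a description of these letters and no measured start.

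The next sequences are snoRNAs inside the members whose isoforms are described below, from the release 29 transcripts (GRCh38). Capitals mark the ACA that ends an H/ACA snoRNA, or the C box (TGATGA) and the last D box (CTGA) of a C/D snoRNA. SNORA17A (chr9:136726747-136726879, minus) lies in SNHG7. SNORD52 (chr6:31837076-31837142, plus) lies in C6orf48, and SNORD49A (chr17:16440036-16440106, plus) and SNORD65 (chr17:16441226-16441298, plus) in LRRC75A-AS1.
SNORA17A: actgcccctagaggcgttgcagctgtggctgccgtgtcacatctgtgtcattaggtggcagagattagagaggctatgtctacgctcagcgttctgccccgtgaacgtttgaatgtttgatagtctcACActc
SNORD52: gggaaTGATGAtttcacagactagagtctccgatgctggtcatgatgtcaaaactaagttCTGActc
SNORD49A: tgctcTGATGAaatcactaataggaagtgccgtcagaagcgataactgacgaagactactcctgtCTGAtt
SNORD65: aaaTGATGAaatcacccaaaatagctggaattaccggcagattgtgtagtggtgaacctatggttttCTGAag
SNORA17A is 133 bases long.

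A few members held most of the counts. Genes were compared on counts per kilobase of transcript, scaled to the same total over the named transcripts in every library. On this scale GAS5 (a growth arrest RNA and C/D host) was highest, at a mean of 2378 over the 4 libraries. C6orf48 (also named SNHG32) followed at 1959 and LRRC75A-AS1 at 1529. Next came ZFAS1 (antisense to ZNFX1) at 883.9 and SNHG4 (an H/ACA host) at 417.2. GAS5 lay between 2084 and 3073 and C6orf48 between 1709 and 2276, so these neighbours overlapped. LRRC75A-AS1, at 1863 and 2033 in wild-type cells against 1181 and 1039 in resistant cells, overlapped C6orf48 in wild type only. ZFAS1 lay between 812.2 and 919.4 in all libraries, below every value of those 3 and above every value of SNHG4. The 4 members with most counts held 74.5% ± 0.0470 of all member counts in wild-type cells against 70.9% ± 0.612 in resistant cells (SD over 2 libraries each). At the other end, SNHG18 and SNHG27 had no count in any library, which allows up to 3 counts per library, and SNHG26 had 1, 11, 2 and 1 counts and was not tested.

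**Figure D1:**
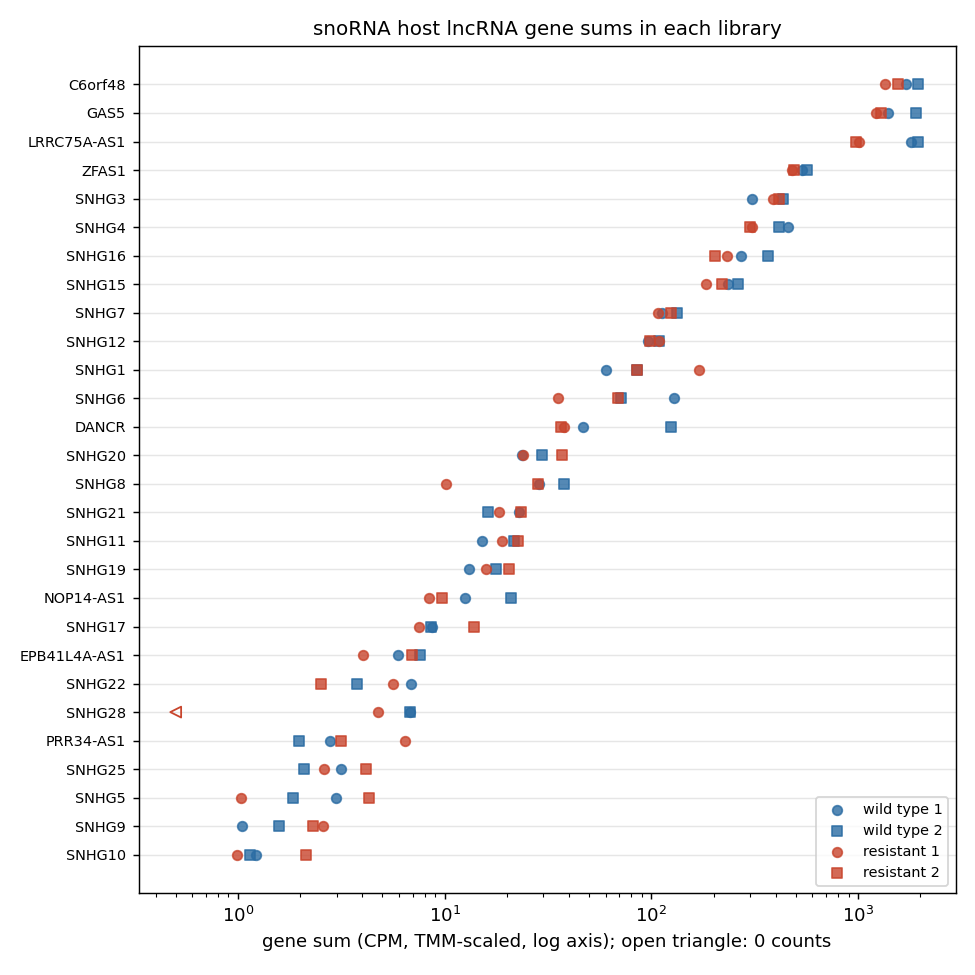
Gene sums of the 28 tested members in each library, in CPM (counts scaled to library size, with TMM factors) on a log axis. Blue marks wild type and red resistant cells, circles replicate 1 and squares replicate 2. C6orf48, GAS5 and LRRC75A-AS1 have the highest sums in every library, while SNHG28 has no count in resistant replicate 2 (open triangle, placed at the left edge).

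Summed, the members held a smaller share of the library in resistant cells, although 13 of 28 tested had a log2 fold change above 0. Their counts came to 0.567% and 0.667% of all counts in wild-type cells against 0.498% and 0.502% in resistant cells, a mean of 0.617% ± 0.0703 against 0.50% ± 0.00288 (SD, n = 2). The groups did not overlap, and with 2 libraries against 2 the smallest exact permutation p is 0.333, so no test of this share was made. Abundant members weigh most in this sum. LRRC75A-AS1 alone had 53328 of 216225 and 52828 of 232672 member counts in the wild-type libraries. In the resistant libraries it had 38133 of 216493 and 35923 of 221223. In RNA from a whole culture, fewer cells that express a gene and less RNA per cell cannot be told apart. The summed level of the 19 hepatocyte names was 220.4 and 302.8 CPM in wild-type cells against 160.5 and 143.3 CPM in resistant cells, most of it H19. Of the 3 tested names 1, H19, had a log2 fold change under 0, and their median was 0.22. That of 10 fibroblast and endothelial names, with COL1A2 and KDR at 0, was 113.3 and 165.3 CPM against 86.7 and 77.7 CPM, most of it VIM, and all 4 tested names had a log2 fold change under 0. Their part in the result was not tested.

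Gene by gene, the abundant members were lower in resistant cells by modest amounts and none passed the test over the whole table. Applied to counts summed per gene, edgeR's quasi-likelihood test, with Benjamini-Hochberg adjustment over 13745 genes, called 0 members and 0 genes in all (0.0%). At an unadjusted p under 0.05 it took 1 of the 28 tested members, against 8.67% of all genes (3.93% lower, 4.74% higher); that member, LRRC75A-AS1, was lower. limma-voom also called 0 genes. DESeq2 called 632 genes (4.6%), of which 1 was a member. Of the 28, 15 had a log2 fold change below 0 (49.2% of all genes did) and 13 above. The libraries of the groups did not overlap for 12 that were lower (20.5% of all genes) and for 2 that were higher (22.5%), PRR34-AS1 and SNHG9, or 14 in either direction (43.0%). The median log2 fold change was −0.13 for the members and 0.01 for all genes tested. Above 200 CPM, a limit chosen after values were seen, 7 of 8 members were lower without overlap, against 25.2% of the 1098 genes of that level. The exception was SNHG3, a host of SNORA73A and SNORA73B.

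**Figure D2:**
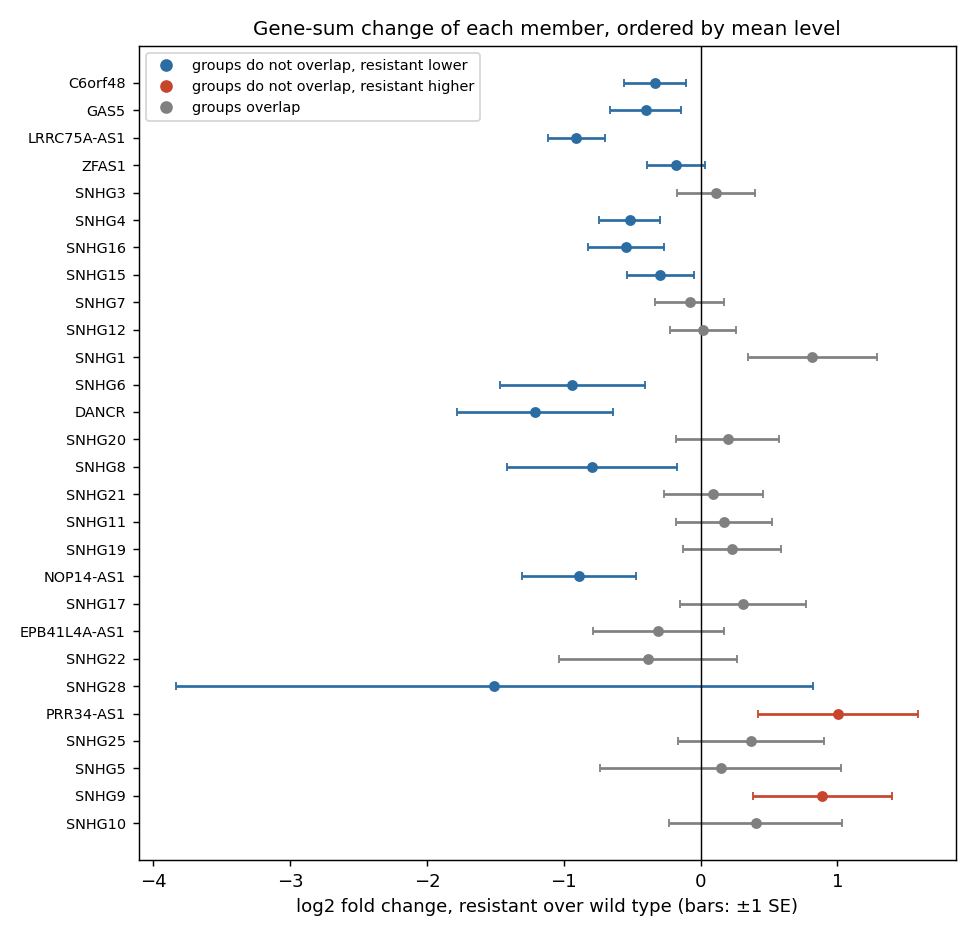
Log2 fold change of gene sums, resistant over wild type, with bars of 1 standard error, for the 28 tested members ordered by mean level. Blue points are members whose resistant libraries both lie below the wild-type ones, red points those above, and grey points overlap. Of the 8 members at the top, 7 lie to the left of 0, and the bars are widest for SNHG28.

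LRRC75A-AS1 (ENSG00000175061, chr17:16438822-16478678, plus strand, GRCh38), the host of SNORD49A, SNORD49B and SNORD65, was the member with the smallest p. Its counts were 53328 and 52828 in wild-type cells against 38133 and 35923 in resistant cells, or 1803 and 1941 CPM against 1015 and 982 CPM. Every resistant library was below every wild-type one, and the mean was 1.88-fold lower. The log2 fold change was −0.91 ± 0.21 (standard error, edgeR unadjusted p = 0.0140, adjusted p = 0.393). It was the member that DESeq2 called (adjusted p = 0.00551). Over the other settings tried, leaving out each library included, it lay between −1.05 and −0.81. The gene overlaps LRRC75A and AC093484.4 on the opposite strand, and as the use of strand in counting is not given, reads of these genes cannot be told apart.

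The other abundant C/D hosts were lower by less. GAS5 (ENSG00000234741, chr1:173863900-173868882, minus) had 1402 and 1910 CPM in wild-type cells against 1220 and 1289 CPM in resistant cells. Wild-type replicate 2 stood above the other 3 libraries, and the log2 fold change of −0.40 ± 0.26 (standard error, edgeR adjusted p = 0.749) was −0.16 without it. C6orf48 (ENSG00000204387, chr6:31834608-31839766, plus), the host of SNORD48 and SNORD52, had 1705 and 1956 CPM in wild-type cells against 1345 and 1554 CPM in resistant cells (log2 fold change −0.34 ± 0.23, edgeR adjusted p = 0.756). ZFAS1 (ENSG00000177410, chr20:49278178-49295738, plus), the host of SNORD12, SNORD12B and SNORD12C, had 534 and 565 CPM in wild-type cells against 481 and 489 CPM in resistant cells. Its groups did not overlap, yet the difference of −0.18 ± 0.21 was within 1 standard error of 0. SNHG16, the host of SNORD1A, SNORD1B and SNORD1C, had 271 and 365 CPM against 232 and 204 CPM (−0.55 ± 0.28, edgeR adjusted p = 0.694). Without the most abundant isoform of each gene the log2 fold changes were −0.20 for GAS5, −0.62 for C6orf48 and −0.01 for ZFAS1.

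SNHG1 (ENSG00000255717, chr11:62851988-62855914, minus), known also as the U22 host gene after SNORD22, stood at 60.1 and 85.3 CPM in wild-type cells against 170.7 and 85.1 CPM in resistant cells. Only resistant replicate 1 was high. The log2 fold change was 0.82 ± 0.47 (standard error, edgeR adjusted p = 0.720), 0.23 without that library and 1.24 without the other resistant one. Most of the excess lay in 1 isoform, ENST00000541578, with 2724 counts in resistant replicate 1 and 48, 81 and 37 in the other libraries. SNHG6, the host of SNORD87, had 128.4 and 71.5 CPM in wild-type cells against 35.3 and 69.1 CPM in resistant cells, where the nearest libraries of the groups were close. SNHG5, the host of SNORD50A and SNORD50B, was low, with 88 and 50 counts in wild-type cells against 39 and 157 in resistant cells. The resistant libraries of SNHG5 lay on either side of the wild-type ones, 4.13-fold apart, and its sign depended on the setting.

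Among the H/ACA hosts, SNHG4 (ENSG00000281398, chr5:139274102-139284899, plus; SNORA74A and SNORA74D) had 457 and 413 CPM in wild-type cells against 306 and 301 CPM in resistant cells (log2 fold change −0.52 ± 0.22 standard error, edgeR adjusted p = 0.657). Per kilobase of transcript the SNHG4 difference was −0.24. SNHG4 overlaps MATR3 on the same strand. SNHG15, the host of SNORA9, had 234 and 261 CPM against 183.5 and 219.9 CPM (−0.30 ± 0.24). The groups did not overlap for either gene. DANCR (ENSG00000226950, chr4:52712404-52720351, plus; SNORA26), described as a suppressor of differentiation, had 46.9 and 124.9 CPM in wild-type cells against 37.8 and 36.5 CPM in resistant cells. Wild-type replicate 2 stood apart: the log2 fold change of −1.21 ± 0.57 (edgeR adjusted p = 0.680) was −0.34 without it. SNHG3 had 306 and 434 CPM in wild-type cells against 387 and 412 CPM in resistant cells, so its groups overlapped. It overlaps RCC1 on the same strand. SNHG7 had 112 and 133 CPM against 108 and 124 CPM (−0.08 ± 0.25), and SNHG12 had 96.0 and 108.9 CPM against 108.8 and 98.6 CPM (0.02 ± 0.24). The sums of SNHG7 and SNHG12 therefore overlapped between groups, although isoforms of both differed in share.

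The scaRNA hosts were low. SNHG20 (ENSG00000234912, chr17:77086716-77099902, plus; SCARNA16) had 23.6 and 29.5 CPM in wild-type cells against 23.9 and 37.0 CPM in resistant cells. SNHG21 (SCARNA15) lay between 16.2 and 23.3 CPM, SNHG22 (SCARNA17) between 2.51 and 6.86 CPM and SNHG10 (SCARNA13) between 0.985 and 2.13 CPM. All 4 overlapped between groups. Of the members with no snoRNA inside, NOP14-AS1, which overlaps NOP14 on the opposite strand, had 12.6 and 20.9 CPM against 8.36 and 9.73 CPM. SNHG28 had 201 and 184 counts in wild type, 179 in resistant replicate 1 and 0 in resistant replicate 2. The fitted difference of SNHG28, −1.51 ± 2.33, was −0.50 without that library. The members that were higher without overlap were low in level: PRR34-AS1 had 2.77 and 1.98 CPM against 6.41 and 3.14 CPM, and SNHG9, an H/ACA host, had 1.05 and 1.58 CPM against 2.58 and 2.30 CPM. SNHG8, also an H/ACA host, was lower, with 28.7 and 37.7 CPM against 10.1 and 28.2 CPM. SNHG11, SNHG17, SNHG19, SNHG25 and EPB41L4A-AS1 overlapped between groups at 2.09 to 22.6 CPM. Of 10 tested members with a pyrimidine tract at the RefSeq start, 5 were lower without overlap and 0 higher, and of 14 without one, 5 were lower and 1 higher. Of 4 tested members with no entry in the table, 2 were lower and 1 higher, and over all genes 20.5% were lower and 22.5% higher.

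Single isoforms of C6orf48, SNHG7, LRRC75A-AS1, SNHG4 and SNHG15 differed between groups by more than the sums of these genes. Of the 278 member transcripts, 213 had a count and 173 were tested. The edgeR quasi-likelihood test on transcripts called 0 of them, as it called 0 of 42393 in all (0.0%). At an unadjusted p under 0.05 it took 14 (7.74% of all transcripts), 5 higher (4.56%) and 9 lower (3.18%) in resistant cells, from 7 genes. DESeq2 called 9 (5.33% of all), 4 higher and 5 lower. Sharing of reads limits such values: of the 14, 8 had no run of 31 bases that other isoforms of their gene lack, as had 80 of the 173 tested. These transcripts were chosen after their values were seen.

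In C6orf48, 1 isoform was far lower in resistant cells than the gene as a whole. ENST00000395789 had 5828 and 6170 counts in wild-type cells against 1062 and 762 in resistant cells, 11.6% ± 0.0227 against 1.72% ± 0.538 of the gene's counts (SD, n = 2). The difference was 8.56-fold on the CPM scale, with a log2 fold change of −3.10 ± 0.36 (standard error, edgeR adjusted p = 0.329, DESeq2 adjusted p = 4.9e-09). This isoform joins exon 2 to a splice acceptor that lies 4 bases upstream of the one used by ENST00000375642. The junctions, on the plus strand of GRCh38, are chr6:31835451-31836295 and chr6:31835451-31836299, and capitals mark the extra bases.
ENST00000395789: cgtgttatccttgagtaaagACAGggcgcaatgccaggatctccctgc
ENST00000375642: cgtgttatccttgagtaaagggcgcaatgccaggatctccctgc
ENST00000375642 had 571 and 395 counts in wild-type cells against 1146 and 1820 in resistant cells (0.937% ± 0.276 against 2.73% ± 0.660). Its log2 fold change of 1.26 ± 0.46 had an edgeR adjusted p of 0.700. The leading isoform ENST00000375640 held 50.4% and 54.99% in wild-type cells against 62.2% and 59.0% in resistant cells. ENST00000395789 had 31 runs of 31 bases of its own within the gene, out of 922. Of the 922, 39.4% also occur in other genes, chiefly AL671762.1, which overlaps C6orf48 on the same strand. For ENST00000375640 this was 37.9% and for ENST00000375642 38.8%.

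SNHG7 (ENSG00000233016, chr9:136721366-136728184, minus) differed between groups in the shares of all 3 of its main isoforms. The 5-exon ENST00000416970 held 81.6% and 80.5% of SNHG7 counts in wild-type cells against 44.2% and 39.3% in resistant cells, with 2704 and 2913 against 1791 and 1785 counts. The 6-exon ENST00000414282, which skips the last exon of the former and ends 3.29 kb further on, held 14.3% and 15.7% against 38.8% and 41.2%, with 473 and 570 against 1573 and 1868 counts. The 2-exon ENST00000447221 held 4.04% and 3.68% against 17.01% and 19.5%, with 134 and 133 against 690 and 884 counts. No group overlapped for any of the 3. Their log2 fold changes were −1.03 ± 0.31, 1.34 ± 0.38 and 2.19 ± 0.41 (SE; edgeR adjusted p = 0.581, 0.528 and 0.352), and DESeq2 called the last (adjusted p = 2.6e-04). The junctions after the last exon that these isoforms share are at chr9:136724939-136725055 for ENST00000416970 and chr9:136724000-136725055 for ENST00000414282, on the minus strand, and capitals mark the bases after the junction.
ENST00000416970: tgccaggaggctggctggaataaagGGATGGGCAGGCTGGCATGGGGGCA
ENST00000414282: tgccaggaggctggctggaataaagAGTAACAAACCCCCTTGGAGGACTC
The second exon of ENST00000447221 runs through the introns that hold SNORA17A, whose sequence is printed above, and SNORA17B, so that both lie whole inside an exon of 1853 bases. The annotation classes this transcript as antisense and not as a retained intron. It had 1669 runs of 31 bases of its own within the gene out of 2127, and ENST00000414282 had 1850 of 2327. ENST00000416970 had 2. SNHG7 overlaps FAM69B on the opposite strand.

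**Figure D3:**
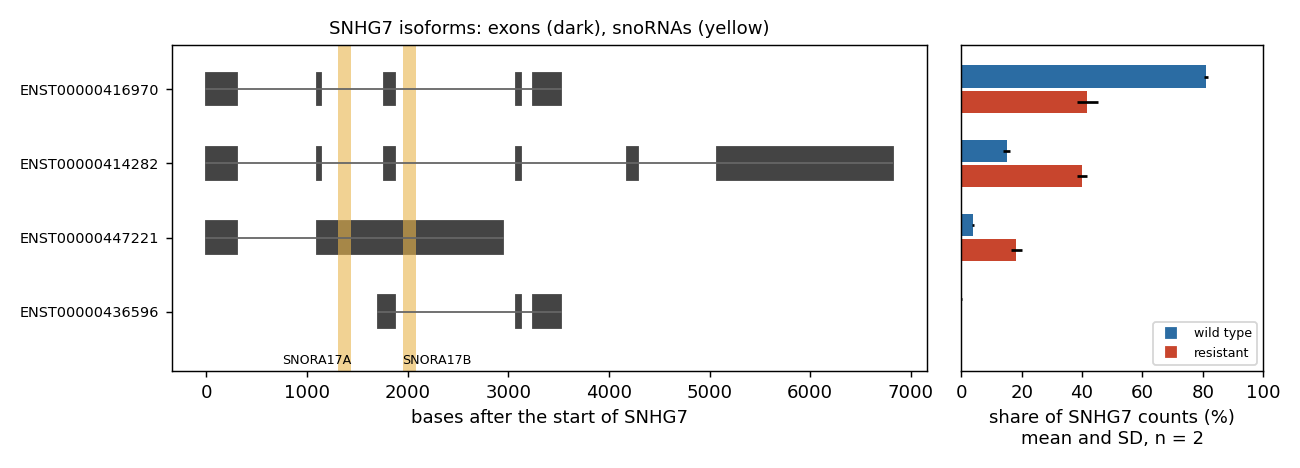
Left, exons (dark) of the 4 SNHG7 isoforms in bases after the start of the gene, with the snoRNAs SNORA17A and SNORA17B in yellow. Right, mean share of SNHG7 counts in wild type (blue) and resistant cells (red) with the SD of 2 libraries. ENST00000416970 goes from 81.0% to 41.7%, and ENST00000447221, whose second exon covers both snoRNAs, from 3.86% to 18.2%.

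In LRRC75A-AS1 the main isoform held a similar share in both groups. ENST00000581913 held 67.3% ± 1.06 of the counts in wild-type cells against 69.9% ± 0.538 in resistant cells, with 35473 and 35930 against 26509 and 25246 counts. ENST00000475953 was 2.96-fold lower, with 7137 and 6451 against 3076 and 2855 counts (log2 fold change −1.57 ± 0.28, edgeR adjusted p = 0.345). Some minor isoforms were counted in 1 group only. ENST00000477249 had 278 and 284 counts in wild-type cells against none in resistant cells, at least 121-fold lower, and ENST00000487066 had none in wild-type cells against 414 and 638 counts in resistant cells, at least 136-fold higher. These bounds set a count of 0 to 3 counts per library and cover counting error only. Within a group, 0 in 1 library and over 100 counts in the other occurred in 4.77% (wild type) and 4.97% (resistant) of 49403 counted transcripts. ENST00000487066, ENST00000475953 and ENST00000581913 had no run of 31 bases of their own within the gene.

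SNHG4 had the same kind of minor isoform: ENST00000513259 had 120 and 216 counts in wild-type cells against none in resistant cells, at least 73.5-fold lower, or 1.40% of SNHG4 counts in wild type. In SNHG15 the isoform ENST00000584327 had 1978 and 2159 counts against 1151 and 1048, and its share went from 29.5% ± 1.23 to 14.9% ± 2.60. The leading SNHG15 isoform ENST00000578968 went from 64.3% ± 0.299 to 76.1% ± 0.188. Neither had a run of 31 bases of its own. In SNHG12, ENST00000648127 held 18.0% ± 0.0890 and 8.005% ± 0.325, with 512 and 531 against 318 and 297 counts. In SNHG20, ENST00000561633 (29 and 86 counts) and ENST00000564509 (21 and 83 counts) were counted in resistant cells only.

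**Figure D4:**
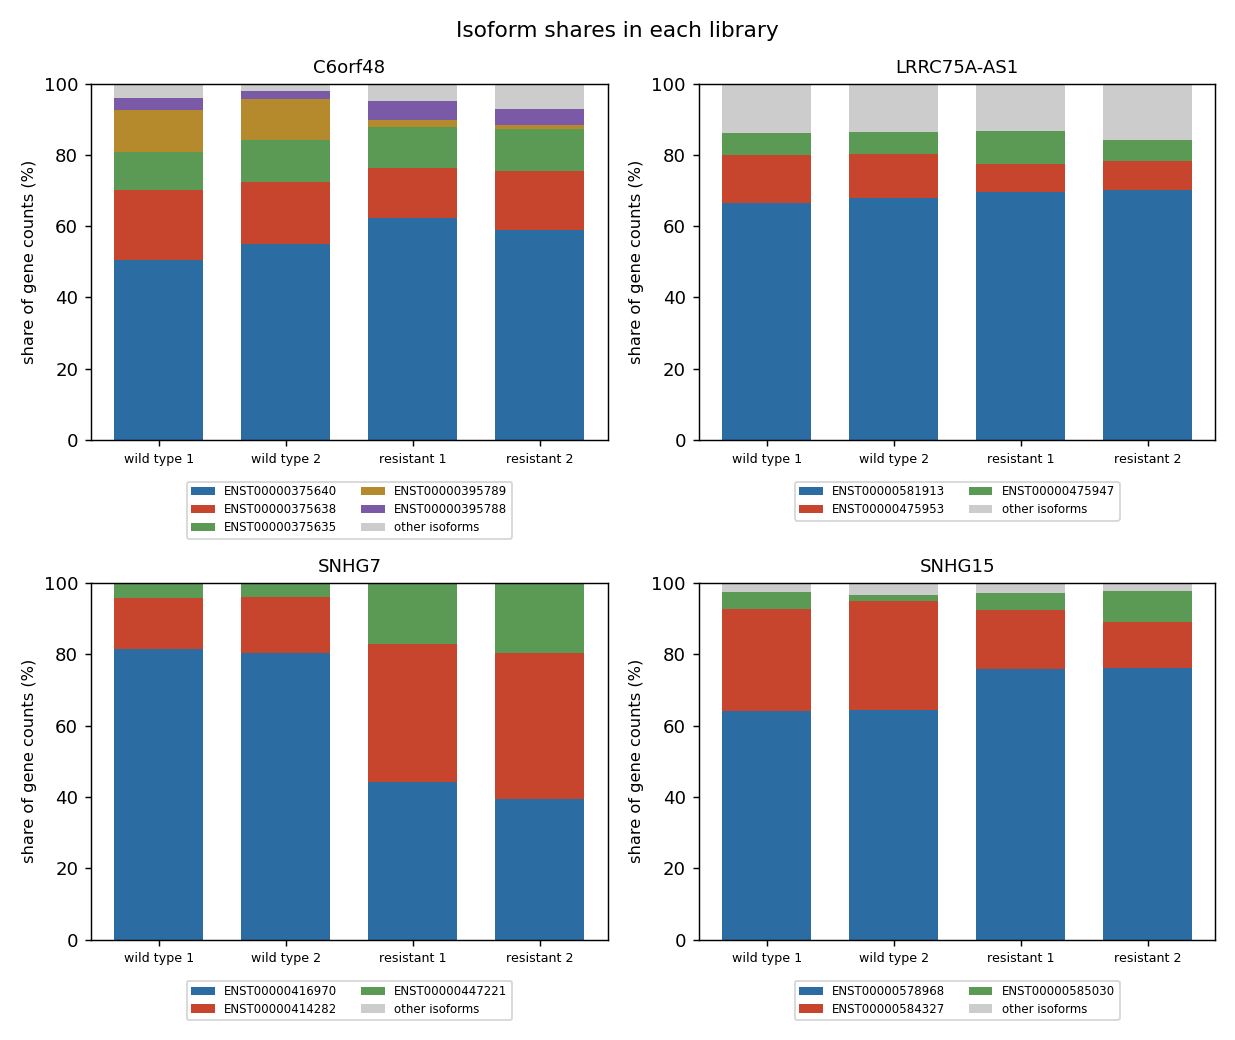
Share of gene counts held by each isoform in each library, for C6orf48, LRRC75A-AS1, SNHG7 and SNHG15. Isoforms over 5% in any library are coloured and the rest are grey. The libraries of a group look alike in SNHG7, where the main isoform goes from 81.0% to 41.7%, while the main isoform of LRRC75A-AS1 stays between 66.5% and 70.3%.

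Whether the isoforms of a gene changed unequally was tested for all 7418 genes with at least 2 tested transcripts, with edgeR's diffSpliceDGE and Simes p-values per gene. It called 204 genes (2.75%), and 2 of the 25 members tested: LRRC75A-AS1 (adjusted p = 0.0312) and SNHG4 (adjusted p = 0.0485). Neither call was kept with the gene-level F test, limma, the replicate block (0.418% of genes called), no filter or any library left out. SNHG7 was called instead by the F test (adjusted p = 0.0356; 4.42% of genes) and by limma's diffSplice (adjusted p = 0.0291; 0.809% of genes), while its Simes adjusted p in edgeR was 1. The isoform of highest share differed between groups in 2 of the 27 tested members with at least 2 transcripts, DANCR and SNHG20, against 25.6% of 9516 such genes. In DANCR, ENST00000425653 held 42.5% ± 10.6 in wild-type cells against 25.5% ± 17.5 in resistant cells, and ENST00000411630 held 38.2% ± 2.25 and 49.2% ± 14.4, so the shares overlapped. In SNHG20, ENST00000434411 went from 23.4% ± 0.530 to 10.3% ± 9.42 and ENST00000650557 from 22.3% ± 8.25 to 34.3% ± 19.2. In the other 25 of these members the same isoform led in both groups. Both differences rest on 1 library: without wild-type replicate 2 neither DANCR nor SNHG20 differed, and SNHG11, SNHG21 and SNHG9 did. With retained introns left out, DANCR no longer differed. SNHG26, too low to be tested at 1 and 11 counts in wild-type cells against 2 and 1 in resistant cells, also had different leading isoforms.

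A larger share of member counts lay in resistant cells in isoforms that keep a whole snoRNA inside an exon. There were 59 such transcripts in 18 members, of which 41 are classed as retained introns. They held 6.88% and 5.48% of member counts in wild-type cells against 9.38% and 9.40% in resistant cells, without overlap. SNHG3 weighs heavily here, since its leading isoform keeps SNORA73A, a snoRNA of ribosomal RNA processing, in an exon and held 60.0% and 41.0% of its counts in wild-type cells against 55.3% and 60.6% in resistant cells. Without SNHG3 the shares were 4.07% and 5.86%. Unspliced precursor and a stable isoform cannot be told apart in these counts.

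By gene, the share was higher in resistant cells without overlap in 6 of the 18 members and lower in 3. Over all 71 tested genes with such an isoform, members included, it was higher without overlap in 21.1% and lower in 16.9%, so groups that do not overlap are common for this measure. It was higher in SNHG7 (above), in SNHG16 (16.1% and 15.5% against 20.9% and 21.7%), in GAS5 (4.82% and 3.38% against 6.16% and 5.98%), in C6orf48 (3.38% and 2.27% against 5.25% and 4.33%), in SNHG6 (4.08% and 6.52% against 13.3% and 7.99%) and in SNHG22 (0.493% and 0.980% against 1.42% and 2.17%). The shares of SNHG22 rest on a few counts, as its sums were 203 and 102 in wild-type cells against 211 and 92 in resistant cells. In C6orf48 the isoform was ENST00000395788, which holds SNORD52. SNHG1 went the other way, with 27.97% and 23.9% in wild-type cells against 15.8% and 15.4% in resistant cells. The main part of that was SNORD22. Isoforms that keep it in an exon held 19.5% and 17.9% against 5.22% and 10.3% of SNHG1 counts. In resistant replicate 1 these shares are lowered by ENST00000541578, which keeps no snoRNA in an exon. That isoform held 42.5% of SNHG1 counts there. It held 2.70% and 3.49% in the wild-type libraries and 1.19% in resistant replicate 2. SNHG20 and SNHG11 were the other members with a lower share. In SNHG11 it was 6.44% and 4.77% in wild-type cells against 0.141% and 4.60% in resistant cells. The nearest libraries of its groups were thus close, and the lowest value rests on very few of 708 counts. These shares were not tested.

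**Figure D5:**
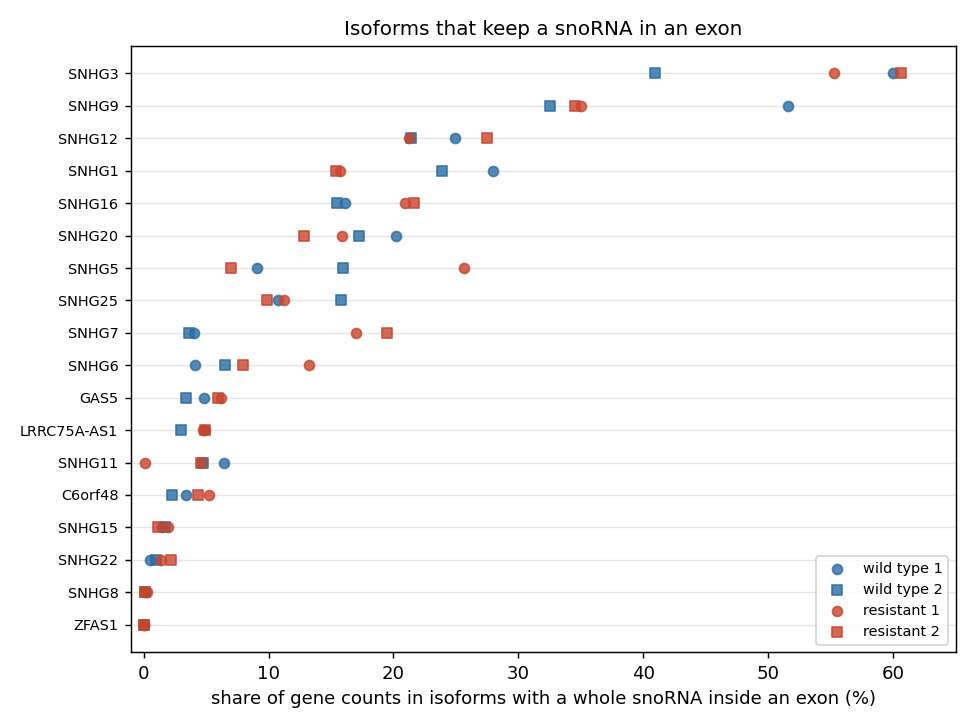
Share of each gene's counts in isoforms with a whole snoRNA inside an exon, in each library, for the 18 members that have such isoforms. Blue is wild type and red resistant cells. SNHG7 lies at 4.04% and 3.68% in wild-type cells against 17.01% and 19.5% in resistant cells, and SNHG1 lies lower in resistant cells.

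Libraries of 1 group disagreed on single isoforms more than on sums. In wild type 10 member transcripts, and in resistant cells 9, were at 0 in 1 library and over 100 counts in the other (4.77% and 4.97% of 49403 counted transcripts). Among gene sums this held for 0 members within the wild-type pair and for 1, SNHG28, within the resistant pair. A further 9 member transcripts had a count of exactly 1 in every library, of 212 in the table (0.429%). Isoforms such as ENST00000564414 of SNHG20, with 0 and 156 counts in wild-type cells against 0 and 251 in resistant cells, had no stable value in either group.

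Genes of the pathway around the hosts were read from the same table, which holds only their noncoding transcripts. Of 13 tested genes for snoRNP proteins and their assembly, which build the particle on the snoRNA, 0 had an unadjusted edgeR p under 0.05. Over all genes 8.67% did. The most abundant, RUVBL2, had 888.6 ± 41.6 CPM in wild-type cells against 833.7 ± 172 CPM in resistant cells. Of 7 tested genes for lariat and snoRNA end processing, 1 did: XRN1, a 5′ exonuclease, with 316.7 ± 106 against 151.5 ± 22.9 CPM (SD, n = 2; edgeR adjusted p = 0.556). In this list 5 of the 7 had a log2 fold change under 0. The median of −0.88 was the value of TENT4B, −0.88 ± 1.78 (standard error), whose resistant libraries were far apart. TENT4B had 8201 and 6858 counts in wild-type cells against 176 and 10347 in resistant cells. Summed with TENT4B included, the list had 662.8 and 783.3 CPM in wild-type cells against 297.7 and 602.7 CPM in resistant cells. Of 13 mTOR and TOP translation genes 0 had an unadjusted edgeR p under 0.05. After adjustment edgeR and DESeq2 each called 0 genes of these 3 lists.

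Other genes that host snoRNAs were spread over both directions. Of 25 hosts listed by name, protein-coding but for the pseudogene CCT6P1, 8 were higher and 6 lower without overlap (22.5% and 20.5% of all genes). Their median log2 fold change was 0.01. At an unadjusted edgeR p under 0.05, 2 were higher and 1 lower; edgeR called 0 after adjustment, and DESeq2 called CCT6A and CWF19L1. Noncoding transcripts of RACK1, a ribosomal scaffold protein and host of several SNORD genes, had 36881 and 34947 counts in wild-type cells against 23161 and 29663 in resistant cells (log2 fold change −0.83 ± 0.25, edgeR adjusted p = 0.520). Those of CWF19L1 had 1665 and 1168 against 10482 and 15586 counts (2.83 ± 0.37, edgeR adjusted p = 0.323), and those of CCT6A, a chaperonin subunit, 4346 and 3932 against 11573 and 15355 (1.32 ± 0.28, edgeR adjusted p = 0.392). A further 203 tested hosts came from the annotation, whatever their gene class. Of these, 44 were higher and 39 lower without overlap, again beside 22.5% and 20.5% of all genes. Their median log2 fold change was 0.01. At an unadjusted edgeR p under 0.05, 4 were higher and 10 lower, where 4.74% and 3.93% of all genes were; edgeR called 0 after adjustment and DESeq2 called 7.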

How the data were processed

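Per the labels, RNA libraries were made from 2 µg of total RNA and sequenced as paired 150-base reads in 4 libraries. The file deposited by the authors gives estimated counts for each transcript in whole numbers, a unit inferred from what the columns hold. The sources used here name no aligner or counting tool. A mouse build, mm9, is listed in the submitters' processing notes, while the transcript identifiers are human Ensembl ones; which build was used is not given.

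Identifiers were matched to GENCODE release 29 (GRCh38), and transcripts were summed per gene. Ensembl identifiers outside that release, 6.15% to 6.77% of the counts, stayed out of gene sums. Both levels were tested on the whole table with the edgeR 4.0.16 quasi-likelihood test (R 4.3.3), two-sided, with TMM factors, the edgeR filter at a minimum count of 10 and a Benjamini-Hochberg threshold of 0.05. A standard error is the log2 fold change divided by the square root of F. CPM are relative to the tested features. Isoform usage was tested with diffSpliceDGE. limma 3.58.1 and DESeq2 1.42.0 served as alternatives, and the code was tested on simulated data. A count of 0 allows up to 3 counts per library, for counting error only. No pair of libraries in a group agreed within sampling noise (chi-square per transcript 240.3 and 267.2). Start sequences come from RefSeq (GRCh38.p14), where C6orf48 is SNHG32 and LRRC75A-AS1 is SNHG29, and 4 members had no entry. Tables and figures used Python 3.11.15, pandas 2.3.3, numpy 2.4.6 and matplotlib 3.10.9.

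Members and lists were chosen with earlier results of these data known. Values per library were given for the 5 members of highest count per kilobase, members with a gene-sum p under 0.05 or groups apart by a log2 fold change of at least 1, members whose leading isoform differed, members with libraries of a group over 4-fold apart, and GAS5, SNHG1, ZFAS1 and DANCR. Other members and all isoforms named were chosen after their values were seen. Marker lists of other cells were also read: 4 fibroblast and endothelial genes were tested, of which 1 (PDGFRB, lower) had an unadjusted p under 0.05, and of the blood cell list 0 genes reached the filter. Some results of genes and sequences around the members are not reported here.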

Additional observations from a re-analysis of the deposited data

How the results depend on the processing

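Over all genes, edgeR and limma called 0 gene sums and 0 transcripts under every setting tried, while DESeq2 called 632 and 2261. The number of genes with changed isoform usage went from 204 to 328 with the F test, 60 with limma's diffSplice, 29 without the filter and 7 to 41 when 1 library was left out. The number of members whose leading isoform differed was 5 per kilobase and 3 to 5 when 1 library was left out, not always with DANCR and SNHG20 among them. The members' share of all counts was 0.777% in wild type and 0.601% in resistant cells over the named transcripts. It was 0.982% and 0.781% per kilobase, and 0.475% and 0.377% without C6orf48, lower in resistant cells each time. LRRC75A-AS1 was not left out in the same way. It was lowered more than C6orf48 (log2 fold change −0.91 against −0.34), so the value without C6orf48 does not show how far the groups differ without LRRC75A-AS1. The log2 fold change of SNHG20 ran from −0.141 (without resistant replicate 2) to 0.482 when 1 library was left out and was −0.0192 without its most abundant transcript. That of SNHG5 was −0.164 with limma and −0.143 with the replicate block, and it ran from −1.20 (without resistant replicate 2) to 0.835 when 1 library was left out, with −0.16 without wild-type replicate 2. Where a library was left out, the remaining one of its group was taken to vary like the other group. The cause of these differences was not tested.

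The groups share the replicate numbers 1 and 2. Over all features, the deviations of same-numbered libraries had a correlation of −0.02 over gene sums and 0.01 over transcripts. A batch that acts on part of the genes or in both directions could also give a value near 0. Whether the number marks a shared batch is therefore not known. With the replicate block, edgeR called 0 gene sums, 0 transcripts and 31 genes for isoform usage, of which 0 were members. The common dispersion was 0.542 for gene sums and 0.942 for transcripts.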
